A study of Mus musculus with 4 samples.

Results

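The proteasome genes of mouse muscle were followed here through 43 subunit and assembly genes: the alpha ring genes Psma1 to Psma7, the constitutive beta ring genes Psmb1 to Psmb7, the immunoproteasome genes Psmb8 to Psmb10, the ATPase genes Psmc1 to Psmc6, the non-ATPase genes Psmd1 to Psmd14, the activator genes Psme1 to Psme4, the inhibitor gene Psmf1 and the assembly factor gene Pomp. The genes were listed by name, and 42 of the 43 had a probe set that the annotation gives to 1 gene only; all 42 passed the filter on dim probe sets and were among the 15102 genes tested. Psme2 shares its probe set with Psme2b and was not named from it. The 4 samples were made from the tibialis cranialis, the large muscle along the shin, taken from 8 male C57Bl/6 mice that ate a high fat diet from 8 weeks of age. After 4 weeks of diet 1 leg received AAV8 ProMyo and the opposite leg saline, by intramuscular injection, and both muscles were taken 10 weeks later at 22 weeks of age. Each array carried mixed RNA of 4 animals, so that the ProMyo group and the saline group each had an array of animals 1-4 and an array of animals 5-8. AAV8 is an adeno-associated virus that enters muscle fibres efficiently, and ProMyo is understood here as the propeptide of myostatin, which binds and holds back this secreted inhibitor of muscle growth. The labels name no promoter for the vector and no leg that received an empty vector, so the virus and the inhibition of myostatin cannot be told apart. All animals, saline legs included, were on the high fat diet. Each pool is 1 array, so p-values measure the spread between pools and not between animals.

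The proteasome is the protease that degrades ubiquitin-tagged proteins. Its barrel is built of outer rings of alpha subunits, which gate the entrance, and inner rings of beta subunits, a few of which carry the cutting sites. A regulatory particle of ATPases and non-ATPase subunits binds the tagged protein, removes the ubiquitin, unfolds the chain and feeds it into the barrel. Interferon and other immune signals make cells replace the cutting subunits by immunoproteasome forms that favour peptides for antigen presentation. In skeletal muscle this system degrades much of the contractile protein, and its genes are known to be raised in many forms of wasting.

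Most proteasome genes read slightly higher in ProMyo muscle than in the saline muscle of the same mice, with no gene called after adjustment. In both pools of animals 29 of the 42 genes were higher in ProMyo muscle, or 69.0%, where 29% of all genes tested were. In both pools 2 genes were lower, Psmb8 and Psmc4, where 24% of all genes were. The median difference was 0.17 on the log2 scale over the 42 genes and 0.01 over all genes; within pool 1-4 the medians were 0.14 and 0.00, and within pool 5-8 they were 0.15 and 0.04. Both ProMyo arrays lay above both saline arrays for 21 of the 42 genes, where the share over all genes was 17.8%, and below both for 2, where it was 15.7%. A difference of at least 0.25 in both pools was reached upward by 6 genes (Psma4, Psmc1, Psmd6, Psmd7, Psmd13 and Pomp) and downward by 0, against 7.75% and 5.94% of all genes. The 42 genes were read on the same 4 arrays and are not independent of each other.

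No proteasome gene passed the test. The limma test called 0 of the 42 genes and 0%, or 0, of all 15102 genes at an adjusted p under 0.05, with a smallest adjusted p of 0.822 in both. At an unadjusted p under 0.05 there were 3 genes higher in ProMyo muscle, Psma4, Psmd6 and Psmd7, where 3.07% of all genes were, and 0 lower, where 2.72% were. In either direction that was 3 of 42, or 7.14%, against 5.79% of all genes, a share near the background. The count was 0 without ProMyo 1-4 and 0 without ProMyo 5-8, against 2.93% and 2.34% of all genes, 2 (4.76%) without saline 1-4, against 10.6%, and 1 (2.38%) without saline 5-8, against 6.76%. With the pool of animals as a replicate block, limma also called 0 genes, with 3 of the 42 (7.14%) at an unadjusted p under 0.05, against 6.88% of all genes.

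**Figure D1:**
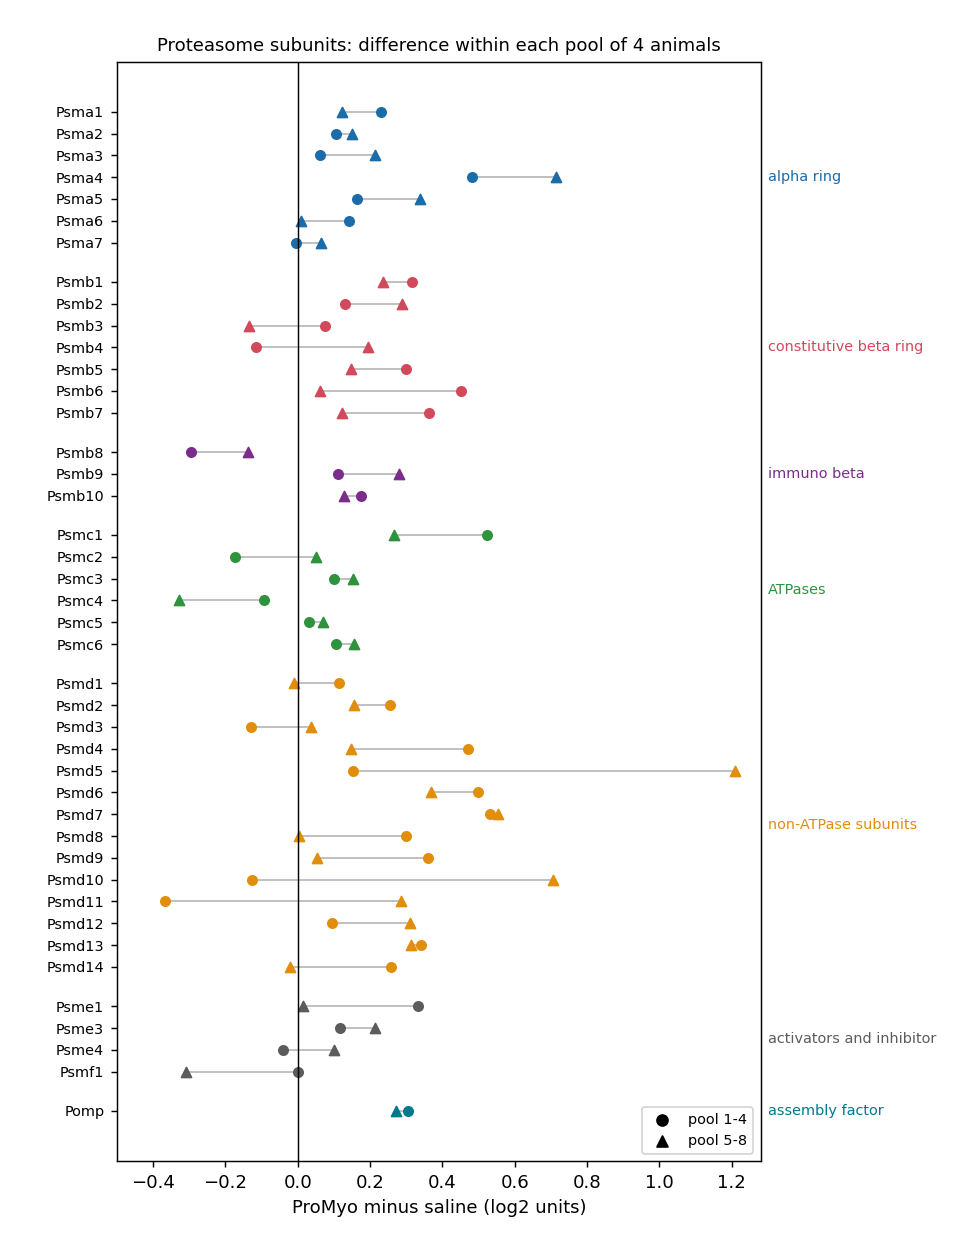
ProMyo minus saline within animals 1-4 (circles) and animals 5-8 (triangles) for the 42 measured genes, in log2 units, coloured by subcomplex. Both symbols lie right of 0 for 29 genes and left of 0 for 2, Psmb8 and Psmc4.

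The arrays differed in ways that bear on these values. The upper quartile of all probe sets was between 3.15 and 3.20 log2 units on 3 arrays but only 2.97 on saline 5-8, whose hybridization controls were also brighter, while the medians stayed between 1.06 and 1.11. Bright genes were therefore compared among themselves as well. Of 33 proteasome genes with a mean level of 5 or above, 23 were higher in both pools and 1 lower, against 39% and 19.6% of the 3815 genes at that level, and 18 had both ProMyo arrays above both saline arrays, against 25.6%. The median difference was 0.15 for these 33 genes and 0.05 for all genes of that level. Brightness was not matched by this: median levels were 7.44 to 7.55 for the 33 genes on the 4 arrays, against 6.40 to 6.51 for the 3815. The share higher in both pools also rose with level, from 25.7% of all genes under level 5. The part of brightness in the remaining difference was not tested. With quantile normalization 21 of the 42 genes were higher in both pools and 6 lower, with a median of 0.11, against 25.1% higher, 29.8% lower and a median of -0.02 over all genes. With median-centred arrays 23 were higher and 4 lower, with a median of 0.14, against 25.8%, 27.3% and -0.01 over all genes. Without the saline 5-8 array the median over the 42 genes was 0.09, against -0.02 over all genes, and without the ProMyo 1-4 array it was 0.11, against -0.01. The 3' over 5' signal of Gapdh, which tends to be higher where RNA is more degraded, was 0.58 and 0.74 log2 units in ProMyo muscle, against 0.90 and 0.81 in saline muscle, and that of beta-actin 1.64 and 1.72, against 1.96 and 1.80. Its part in the proteasome differences was not tested.

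Other cell types of the tissue also differed. Of 6 fibroblast markers 4 were lower (66.7%) and 1 higher (16.7%) in ProMyo muscle in both pools, against 24% and 29% of all genes tested. Their median was -0.15. Of the 6, 2 (33.3%) were lower at an unadjusted limma p under 0.05, against 2.72% of all genes. Col1a1 and Col1a2, the genes of the chains of type I collagen, differed by -0.68 ± 0.18 and -0.78 ± 0.15 (limma, adjusted p = 0.822 for each), and Lum, a proteoglycan of the matrix, by 0.63 ± 0.25. Their summed level on the linear scale was 919 and 897 in ProMyo muscle, against 1115 and 1240 in saline muscle, with none within the background controls on all arrays. The summed level of 15 muscle fibre markers was 45610 and 44560 in ProMyo muscle, against 43970 and 41100 in saline muscle. Of 5 endothelial markers 3 were higher in both pools (60%) and 0 lower, against 29% and 24% of all genes tested, with a median of 0.13. In whole tissue, fewer cells of a type and less RNA per cell cannot be told apart, and the part of these cells in the proteasome differences was not tested.

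**Figure D2:**
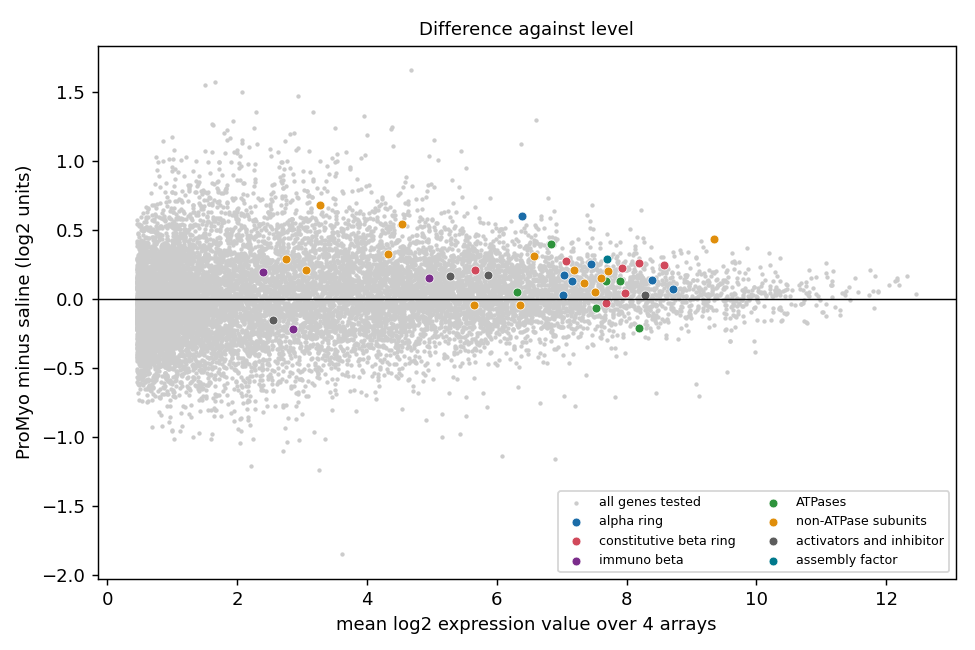
ProMyo minus saline (log2 units) against the mean log2 expression value over the 4 arrays, for all 15102 genes tested (grey) and the 42 proteasome genes (coloured by subcomplex). The proteasome genes lie inside the cloud of all genes, mostly above 0.

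The differences came from several parts of the complex, and the sequences before 5 of these genes are given because 3 of them were among the genes higher by at least 0.25 in both pools (Psma4, Psmd6 and Psmc1) and 2 encode cutting subunits (Psmb5 and Psmb6). Each is the stretch of 250 bases before the RefSeq gene start in GRCm38.p6, read 5′ to 3′ on the gene's own strand, with capitals on the letters of a motif match.
Psma4, chr9:54950609-54950858, plus strand: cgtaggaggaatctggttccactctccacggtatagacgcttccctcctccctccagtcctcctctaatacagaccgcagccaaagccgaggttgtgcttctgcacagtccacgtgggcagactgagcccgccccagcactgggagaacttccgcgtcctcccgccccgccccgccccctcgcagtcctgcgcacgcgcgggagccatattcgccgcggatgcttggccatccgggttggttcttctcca
Psmd6, chr14:14120946-14121195, minus strand: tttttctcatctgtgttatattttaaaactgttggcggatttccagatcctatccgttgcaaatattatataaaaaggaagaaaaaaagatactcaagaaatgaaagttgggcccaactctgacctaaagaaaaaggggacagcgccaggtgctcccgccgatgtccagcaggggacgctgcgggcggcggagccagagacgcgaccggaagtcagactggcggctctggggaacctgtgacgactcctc
Psmc1, chr12:100109952-100110201, plus strand: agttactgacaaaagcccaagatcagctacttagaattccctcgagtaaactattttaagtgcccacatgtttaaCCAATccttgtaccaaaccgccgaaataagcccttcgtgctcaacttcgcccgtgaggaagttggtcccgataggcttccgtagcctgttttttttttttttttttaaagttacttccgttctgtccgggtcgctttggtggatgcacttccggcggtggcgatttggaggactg
Psmb5, chr14:54617996-54618245, minus strand: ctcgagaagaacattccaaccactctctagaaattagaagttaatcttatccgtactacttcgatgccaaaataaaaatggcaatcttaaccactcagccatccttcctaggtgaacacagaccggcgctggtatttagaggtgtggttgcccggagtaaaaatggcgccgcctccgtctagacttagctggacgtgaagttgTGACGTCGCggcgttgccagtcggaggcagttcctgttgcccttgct
Psmb6, chr11:70525107-70525356, plus strand: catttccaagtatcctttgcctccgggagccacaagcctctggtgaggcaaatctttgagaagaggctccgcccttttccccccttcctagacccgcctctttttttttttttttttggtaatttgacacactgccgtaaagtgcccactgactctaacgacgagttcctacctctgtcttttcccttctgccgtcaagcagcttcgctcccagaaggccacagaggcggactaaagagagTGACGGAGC
In Psmb5 and Psmb6 the capitals mark the core of the antioxidant response element, TGACNNNGC, a motif of the factors Nfe2l1 and Nfe2l2, and in Psmc1 the CCAAT box of NF-Y.

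Across both strands of the 250-base windows, the core of the antioxidant response element was found in 5 of 40 windows of 37 proteasome genes (Psmb5, Psmb6, Psmc6, Psmd9 and Psmd12), or 12.5%, against 10.2% of all 32851 windows in the table. CCAAT was found in 13 of the 40, or 32.5%, against 33.8% of all windows. The interferon-stimulated response element, 2 GAAA blocks set 2 bases apart, was found in 3 of the 40 (Psmb3, Psmd4 and Psmd9), or 7.5%, against 2.98%. None of the 3 motifs was matched before Psma4 or Psmd6, and no matches overlapped in the 5 windows printed. The median difference was 0.21 for the 5 genes with the antioxidant element core and 0.15 for the 32 without it. It was 0.14 for the 13 genes with CCAAT and 0.17 for the 24 without it, and 0.21 for the 3 genes with the interferon element and 0.15 for the 34 without it. A match of letters describes these windows and is not a measured binding site.

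Beside the counts by subcomplex that follow, 29% of all genes tested were higher in both pools and 24% lower. At level 5 or above these shares were 39% and 19.6%. Each subcomplex holds few genes, read on the same 4 arrays. Genes of the alpha ring, which forms the gate of the barrel, were higher in both pools for 6 of 7, with a median difference of 0.14. Psma4 stood out among them, with log2 values of 6.75 and 6.63 in ProMyo muscle (animals 1-4, then 5-8), against 6.27 and 5.91 in saline muscle. Both ProMyo arrays lay above both saline arrays. The difference was 0.60 ± 0.19 (log2 ± SE, n = 2 pools per group), or 1.51-fold (limma, adjusted p = 0.822). Psma5 read 7.54 and 7.62 in ProMyo muscle, against 7.37 and 7.28 in saline muscle, without overlap, and differed by 0.25 ± 0.16. Psma1 read 7.18 and 7.08, against 6.95 and 6.96, also without overlap, and differed by 0.18 ± 0.16. Psma2, Psma3 and Psma6 were higher in both pools by smaller amounts, with differences between 0.07 and 0.14. Psma7 was the exception of the ring, with a difference of 0.03 and pools of opposite sign.

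Genes of the constitutive beta ring were higher in both pools for 5 of 7, with a median difference of 0.22, or 0.13 without ProMyo 1-4. The ring holds all cutting subunits of the constitutive barrel: Psmb6 encodes the caspase-like, Psmb7 the trypsin-like and Psmb5 the chymotrypsin-like one. Psmb6 read 8.48 and 8.17 in ProMyo muscle, against 8.03 and 8.11 in saline muscle, and differed by 0.26 ± 0.18. Most of it came from animals 1-4, where the difference was 0.45, against 0.06 in animals 5-8. Psmb7 read 8.72 and 8.67 in ProMyo muscle, against 8.36 and 8.55 in saline muscle, and differed by 0.24 ± 0.16. Psmb5 read 8.12 and 7.95, against 7.82 and 7.80, and differed by 0.22 ± 0.16. All these cutting subunits had both ProMyo arrays above both saline arrays, as had Psmb1, a structural subunit. Psmb1 read 7.32 and 7.09 in ProMyo muscle, against 7.01 and 6.85 in saline muscle, and differed by 0.28 ± 0.18. The other structural subunits were Psmb2, at 0.21 and higher in both pools, and Psmb3 and Psmb4, at -0.03 and 0.04 with pools of opposite sign. The next brightest probe set of Psmb3 differed from this, at 0.36, from 0.60 and 0.12 in the 2 pools. That of Psmb4 read 0.06, from 0.05 and 0.07.

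Among the immunoproteasome genes the direction was split. Psmb8, which takes the place of Psmb5, read 2.80 and 2.72 in ProMyo muscle, against 3.10 and 2.86 in saline muscle. The groups did not overlap, ProMyo being the lower, and the difference was -0.22 ± 0.17 (log2 ± SE, n = 2 pools per group; limma, adjusted p = 0.867). Psmb9, which takes the place of Psmb6, read 2.62 and 2.40 in ProMyo muscle, against 2.50 and 2.12 in saline muscle. These groups overlapped, although the difference was positive within each pool, at 0.11 and 0.28. Psmb10, which takes the place of Psmb7, read 5.10 and 4.96 in ProMyo muscle, against 4.92 and 4.83 in saline muscle, without overlap, and differed by 0.15 ± 0.16. Set against its constitutive partner, the difference of Psmb8 was lower than that of Psmb5 by 0.59 in animals 1-4 and 0.28 in animals 5-8. For Psmb9 against Psmb6 these contrasts were -0.34 and 0.22, and for Psmb10 against Psmb7 they were -0.19 and 0.01, so that only the pair of Psmb8 and Psmb5 had the same sign in both pools. With 2 arrays a group, an exact permutation test of a single contrast could not pass a threshold of 0.05, and none was run.

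Whole muscle also holds leukocytes, which carry more immunoproteasome than muscle fibres do. Of 22 measured leukocyte and macrophage markers, 8 were lower (36.4%) and 4 higher (18.2%) in ProMyo muscle in both pools. Over all genes tested these shares were 24% and 29%. The median of the 22 markers was -0.05, and 1, Cd79a, lay within the background controls on all arrays. Their summed level on the linear scale was 323 and 292 in ProMyo muscle, against 384 and 334 in saline muscle. Their part in the Psmb8 difference was not tested. Psmb8 and Psmb9 lie beside Tap1 and Tap2, the genes of the peptide transporter of antigen presentation, on the RefSeq map of GRCm38.p6. Chosen for this position, Tap1 differed by -0.31 ± 0.22 and Tap2 by 0.09 ± 0.19. Fibre genes marked the tissue as labelled: all 15 muscle fibre markers were measured above background, with a median difference of 0.10. In both pools 10 were higher (66.7%) and 3 lower (20%), against 39% and 19.6% of all genes at level 5 or above.

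The ATPases, which unfold the substrate, had 4 of 6 genes higher in both pools, 1 lower and a median of 0.09. This median rested on single arrays: it was 0.052 without ProMyo 1-4, 0.137 without ProMyo 5-8, 0.159 without saline 1-4 and 0.0098 without saline 5-8, and 0.017 with quantile normalization. Psmc1, the gene of the ATPase known as Rpt2, read 7.14 and 6.93 in ProMyo muscle, against 6.62 and 6.67 in saline muscle. The groups did not overlap, and the difference was 0.40 ± 0.17, or 1.32-fold (limma, adjusted p = 0.822). Psmc4, the gene of Rpt3, went the other way: it read 8.16 and 8.02 in ProMyo muscle, against 8.25 and 8.35 in saline muscle, again without overlap. Its difference was -0.21 ± 0.16, from -0.09 in animals 1-4 and -0.33 in animals 5-8. Psmc6 read 7.76 and 7.75 in ProMyo muscle, against 7.65 and 7.59 in saline muscle, and differed by 0.13 ± 0.15. Psmc3 and Psmc5 were higher in both pools, at 0.13 and 0.05, and Psmc2, at -0.06, had pools of opposite sign.

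The non-ATPase subunits had 9 of 14 genes higher in both pools, 0 lower and a median of 0.21. The median was 0.068 without ProMyo 1-4, 0.33 without ProMyo 5-8, 0.33 without saline 1-4 and 0.094 without saline 5-8. Psmd7, a lid subunit that pairs with the deubiquitinase Psmd14, read 4.95 and 4.69 in ProMyo muscle, against 4.42 and 4.14 in saline muscle. Both ProMyo arrays lay above both saline arrays, and the 2 pools gave nearly the same difference, 0.53 and 0.55. The overall difference was 0.54 ± 0.19, or 1.46-fold (limma, adjusted p = 0.822). Psmd6, another lid subunit, read 9.55 and 9.58 in ProMyo muscle, against 9.05 and 9.22 in saline muscle. Its groups did not overlap either, and it differed by 0.43 ± 0.16, or 1.35-fold (limma, adjusted p = 0.822). Psmd5, a chaperone of the assembly of the base rather than a subunit of the finished particle, had the highest difference of all 42 genes, 0.68 ± 0.35, but it rested on 1 array. It read 3.61 and 3.64 in ProMyo muscle, against 3.46 and 2.43 in saline muscle, so that the difference was 0.15 in animals 1-4 and 1.21 in animals 5-8. Without the saline 5-8 array the Psmd5 difference was 0.17.

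The remaining non-ATPase genes differed less or unevenly. Psmd4, a ubiquitin receptor, differed by 0.31, Psmd13, a lid subunit, by 0.33, and Psmd2, a large scaffold of the base, by 0.21, all higher in both pools. Psmd8, Psmd9 and Psmd12 were also higher in both pools, at 0.15, 0.21 and 0.20. The other large scaffold, Psmd1, stood at 0.05, and Psmd14, the deubiquitinase of the lid, at 0.12, each with pools of opposite sign. Psmd3 and Psmd11, both of the lid, stood at -0.05 and -0.04, with pools of opposite sign. Psmd10, known as gankyrin and another assembly chaperone of the base, stood at 0.29 from -0.13 in animals 1-4 and 0.71 in animals 5-8.

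**Figure D3:**
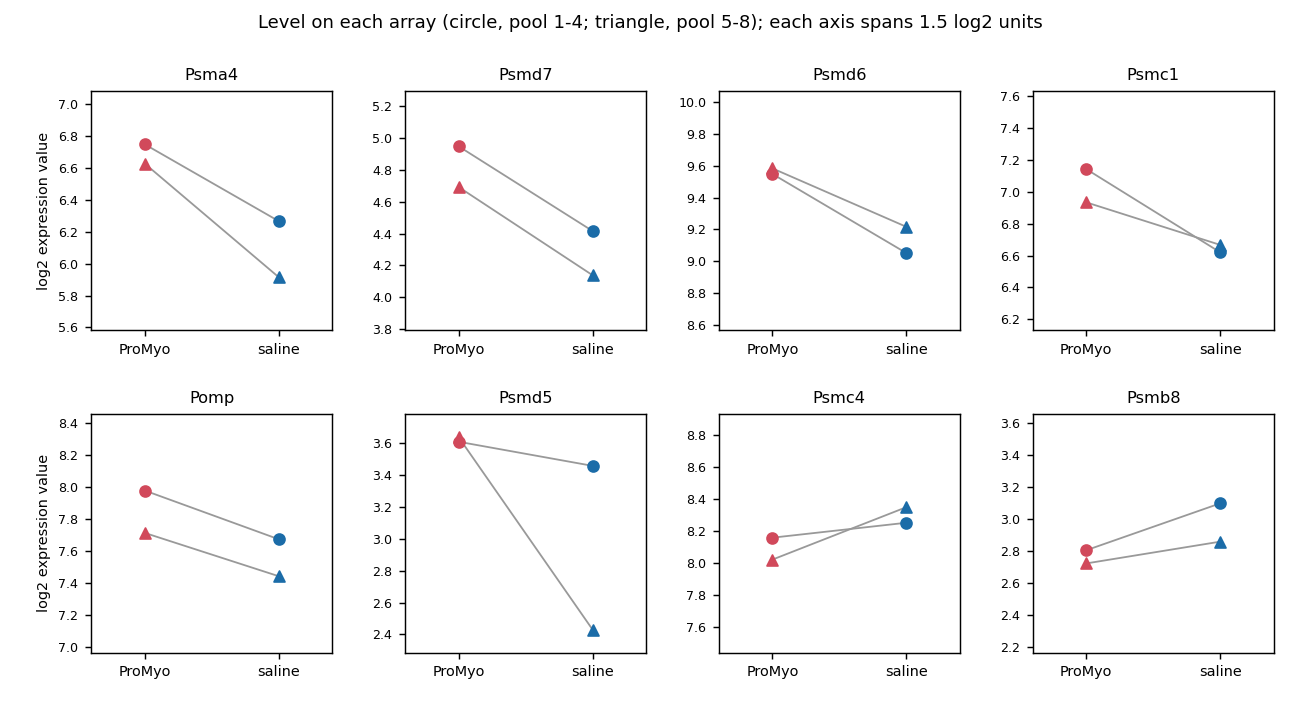
Log2 expression value on each array for 8 proteasome genes, ProMyo (red) left of saline (blue), with lines joining both legs of the same animals (circles 1-4, triangles 5-8). Psma4, Psmd7, Psmd6, Psmc1 and Pomp read higher in ProMyo muscle in both pools, Psmc4 and Psmb8 lower, and Psmd5 shows 1 low array, saline 5-8.

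Activators that open the barrel without ubiquitin gave small differences where the probe set was given to 1 gene only. The probe set shared by Psme2 and Psme2b, not named to either gene, read higher by 0.55 in animals 1-4 and 0.35 in animals 5-8. Psme1, which with Psme2 forms the interferon-inducible activator, read 6.13 and 5.77 in ProMyo muscle, against 5.80 and 5.76 in saline muscle. The groups overlapped, with the difference of 0.17 ± 0.19 lying almost wholly in animals 1-4. Psme3, the nuclear activator, read 5.39 and 5.35 in ProMyo muscle, against 5.27 and 5.14 in saline muscle, and did not overlap. It differed by 0.17 ± 0.16. Psme4, the activator linked to histone turnover, read 8.20 and 8.40 in ProMyo muscle, against 8.24 and 8.30 in saline muscle, and differed by 0.03 ± 0.17, a value that turned to -0.01 with quantile normalization. Psmf1, an inhibitor of the barrel, read 2.61 and 2.36 in ProMyo muscle, against 2.61 and 2.67 in saline muscle. Its values in animals 1-4 were identical in the deposited table, which was so on at least 2 arrays for 1536 of all genes tested and for no other proteasome gene. Pomp, the chaperone needed to complete every new barrel, read 7.98 and 7.71 in ProMyo muscle, against 7.67 and 7.44 in saline muscle. The groups did not overlap, and the difference was 0.29 ± 0.19, from 0.31 and 0.27 in the 2 pools.

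Further probe sets of the same genes gave a check that the choice of probe set did not fix. In 19 genes the next brightest probe set lay above the background controls on all arrays. In 14 of them it had the direction of the brightest. Of the 19, 10 were higher in both pools and 1 was lower. Over all genes, read at the next brightest probe set where a gene had it, 27% were higher and 24.7% lower. Those genes are not matched to the 19: they passed only the filter on dim probe sets, with median levels of 1.57 to 1.66 on the 4 arrays. The median difference of the 19 was 0.07, against 0.13 at the brightest probe sets of the same genes. Of all 32 further probe sets above background, 23 had the direction of the brightest, again without a count over all genes. The second probe set repeated the direction in both pools for Psma3 (0.18), Psma5 (0.37), Psma6 (0.26), Psmb1 (0.31), Psmc6 (0.07), Psmd4 (0.48), Psmd6 (0.28) and Psmd9 (0.42). It did not for Psmd7, whose next probe set was dim and read -0.15 from 0.29 and -0.59 in the 2 pools, nor for Psmc4, where it read 0.05. In Psmd13 it read 0.03, from 0.31 and -0.25 in the 2 pools, and in Psme3 -0.02, from -0.38 and 0.34. The third probe set of Psmd4, dim but above background on all arrays, read -0.25, from -0.23 and -0.27, opposite to the other probe sets of this gene. The second probe sets of Psmb8 and Psma1 read 0.49 and -0.43, opposite to the first, but at levels within the background controls on some arrays. Psma4, Psmd5 and Pomp had 1 probe set each, so their differences have no such check.

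**Figure D4:**
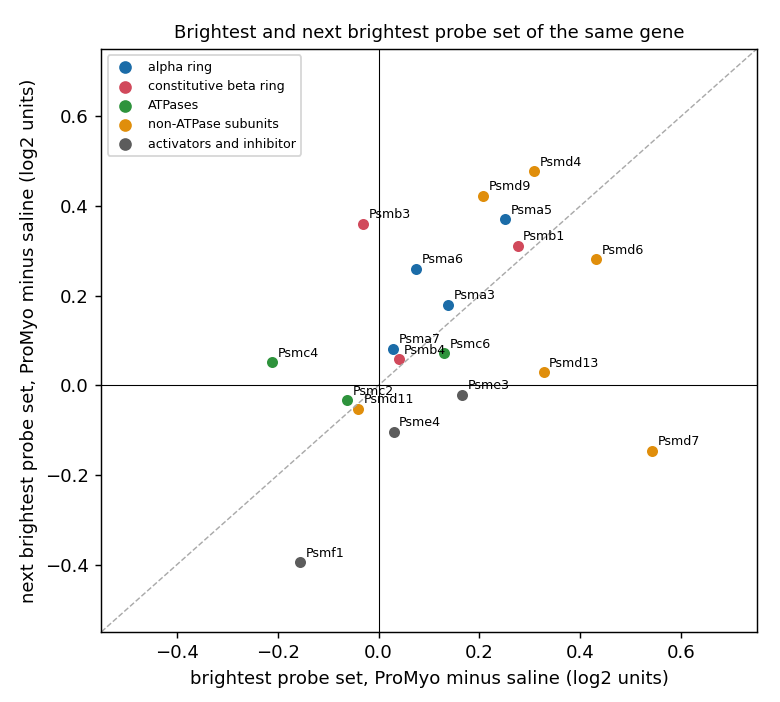
ProMyo minus saline (log2 units) at the next brightest probe set against that at the brightest, for the 19 proteasome genes whose next probe set lay above the background controls on all arrays; the dashed line marks equal values. Psmd4, Psma5, Psmb1 and Psmd6 lie in the upper right, and Psmd7 lies below 0 at its dimmer probe set.

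Genes that work with the proteasome were read beside it. Of 12 measured genes of other proteasome components, chaperones and partners, 6 were higher in both pools (50%) and 1 lower (8.33%). Over all genes tested these shares were 29% and 24%, and over all genes at level 5 or above 39% and 19.6%. Median levels of the 12 genes were 4.98 to 5.35 on the 4 arrays. The median of the 12 genes was 0.15. Ecpas, an adaptor that binds the regulatory particle and is also called Ecm29, read 7.12 on both arrays of ProMyo muscle, against 6.74 and 6.61 in saline muscle. It differed by 0.44 ± 0.16 without overlap (limma, adjusted p = 0.822), although the mean over its probe sets read -0.03. Ube3c, a ubiquitin ligase bound to the proteasome, read 6.92 and 6.66 in ProMyo muscle, against 6.45 and 6.26 in saline muscle, and differed by 0.43 ± 0.18. Uchl5, a deubiquitinase of the regulatory particle, differed by 0.31 ± 0.16, and Usp14, another one, by 0.08 ± 0.18 with pools of opposite sign. The chaperones of barrel assembly stood at 0.47 ± 0.47 for Psmg1, 0.29 ± 0.20 for Psmg2, 0.18 ± 0.18 for Psmg3 and -0.25 ± 0.21 for Psmg4; those of Psmg1 and Psmg2 were positive in both pools.

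The transcription factor Nfe2l1, which induces proteasome genes when proteasome activity is short, read 7.71 and 7.69 in ProMyo muscle, against 7.52 and 7.47 in saline muscle. Its groups did not overlap, and it differed by 0.21 ± 0.15. Ngly1, the enzyme that strips sugars from Nfe2l1 and so activates it, read 6.00 and 6.06 in ProMyo muscle, against 5.70 and 5.82 in saline muscle, and differed by 0.27 ± 0.16. Nfe2l2, a related factor of the oxidative stress response, differed by 0.10 ± 0.17 with pools of opposite sign, and Mafk, a small Maf partner of these factors, by -0.29 ± 0.23, with 3 of its 4 array values identical. The 14 measured genes of this list had a median of 0.00, whose sign changed with both other scalings of the arrays. In both pools 3 were higher (21.4%) and 2 lower (14.3%), against 29% and 24% of all genes tested.

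Upstream of the proteasome, 14 measured genes of ubiquitin activation, shuttling and extraction had a median of 0.12. In both pools 8 were higher (57.1%) and 1 lower (7.14%), against 29% and 24% of all genes tested. These genes were bright, with median levels of 6.15 to 6.30 on the 4 arrays. At level 5 or above the shares of all genes were 39% and 19.6%. Ufc1, the conjugating enzyme of the ubiquitin-like modifier Ufm1, differed by 0.41 ± 0.15 and Ubxn1, a cofactor of the segregase Vcp, by 0.31 ± 0.20. Vcp itself differed by 0.13 ± 0.18, and Ubqln2, a shuttle that carries tagged proteins to the proteasome, by -0.28 ± 0.18. The 22 measured ubiquitin-conjugating enzymes had a median of 0.04, which read -0.02 with quantile normalization. In both pools 9 were higher (40.9%) and 4 lower (18.2%), near the 39% and 19.6% of all genes at level 5 or above. Ube2h differed by 0.34 ± 0.17, Ube2n by 0.31 ± 0.15 and Ube2r2 by -0.35 ± 0.16. Of 18 interferon-inducible genes of antigen presentation, 6 were higher in both pools (33.3%) and 4 lower (22.2%). These shares lay near the 29% and 24% of all genes tested, and the median was 0.07. Nlrc5, the activator of class I antigen presentation genes, read 3.76 and 3.18 in ProMyo muscle, against 2.74 and 2.64 in saline muscle, and differed by 0.78 ± 0.24 (limma, adjusted p = 0.822). Irf8, an interferon regulatory factor of leukocytes, differed by -0.46 ± 0.15, with ProMyo levels within the background controls, and Tapbpl, a peptide editor, by 0.37 ± 0.16.

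**Figure D5:**
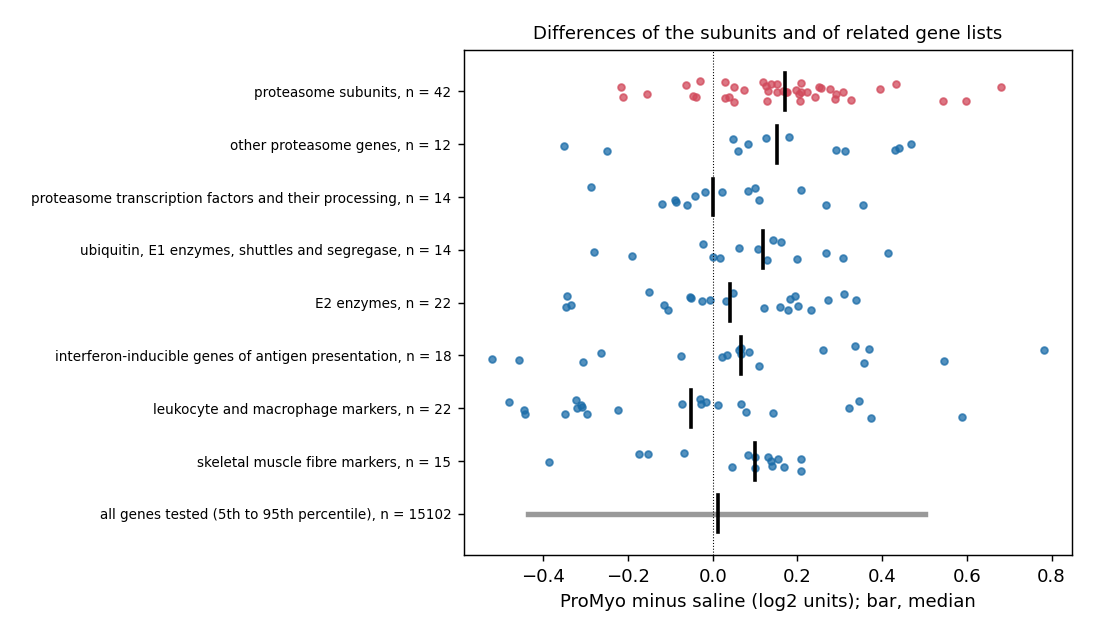
ProMyo minus saline (log2 units) for each proteasome subunit gene (red) and for the genes of related lists and cell type markers (blue), with the median of each list as a bar; the grey line spans the 5th to 95th percentile of all genes tested. The subunit median is 0.17, the median of all genes 0.01.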

How the data were processed

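Expression was measured on 4 Affymetrix mouse arrays. The authors deposited 1 value on a log scale, read here as log2, for each probe set and array. The submitters' processing notes name RMA and Affymetrix Expression Console, with no version. The log base is not stated; the values lay between -0.45 and 13.2. Array medians near 1 are low for RMA, so folds hold on the deposited scale. Of 45101 probe sets, 34945 had 1 gene symbol, 932 several and 9160 none, beside 64 array controls; 34741 matched RefSeq (GRCm38.p6) by gene identifier and no symbol changed. Each gene was read at its brightest probe set by the mean of 4 arrays, and genes below the 25th percentile (0.45) were left out. Differences, ProMyo minus saline, came from limma 3.58.1 under R 4.3.3 (lmFit and eBayes over all genes, Benjamini-Hochberg adjustment, threshold 0.05), with 2 residual degrees of freedom and a median standard error of 0.19; the script was tested on simulated data. The fit did not pair the pools. Both legs came from the same mice and same-numbered pools hold the same animals, so the pools are paired by design; deviations of same-numbered pools correlated with r = 0.16 over genes. Background level was the highest of the Bacillus controls, 0.99. Arrays have no depth, and their number limits the precision. Alternatives were the pool as a block, other filters, variance trend, median centring, quantile normalization, other probe sets and leaving out each array; the restriction to level 5 and the non-overlap counts without an array were added after the data were seen. The members, gene lists and named genes were chosen with earlier results of these data known. The rule for naming genes with array values took the 3 largest same-sign differences of each subcomplex, genes lower in both pools, and the immunoproteasome, activator, inhibitor and assembly genes; of other lists, preset genes and the 3 smallest p, most given by difference alone. Psmb5 was added as the partner of Psmb8.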

Additional observations from a re-analysis of the deposited data

Results flagged for a closer look

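The probe set that the annotation gives to both Psme2 and Psme2b entered no comparison. It read 4.53 and 4.12 in ProMyo muscle, against 3.98 and 3.77 in saline muscle, above the saline level in both pools, with a mean difference of 0.45 on the log2 scale. Which of the 2 genes it reads was not tested.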

How the results depend on the processing

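The precision is limited by 2 arrays a group: leaving out 1 array leaves a lone array that is assumed to vary like the others. The count of genes past the adjusted threshold was 0 under every setting run, also with the paired pools as a replicate block (3 subunit genes at an unadjusted p under 0.05, as without it). The unadjusted count was 1 with the next brightest probe sets (5.63% of all genes), 2 with median centring (5.48%), quantile normalization (6.61%) or the mean of probe sets (5.83%), 4 with a variance trend (6.01%), and 0 to 2 without each array (2.34% to 10.6%). The 29 genes higher in both pools became 6 at a size of 0.25. The 2 lower became 4 with median-centred arrays, 6 with quantile normalization, 0 at a size of 0.25 and 1 at level 5 or above. Genes with all ProMyo arrays above all saline arrays numbered 22 to 34 without each array (32 without ProMyo 5-8 and 34 without saline 1-4), where 29.5% to 42.7% of all genes did so; a count over 3 arrays is easier to meet than one over 4. The median difference of the subunits was 0.14 with median-centred arrays, 0.11 with quantile normalization, 0.16 with the mean of probe sets, 0.15 at level 5 or above, and 0.091 to 0.22 without each array. Without each array the medians spanned 0.134 to 0.27 in the constitutive beta ring, 0.0021 to 0.222 in the immunoproteasome genes, 0.0098 to 0.159 in the ATPases, 0.068 to 0.33 in the non-ATPase subunits, 0.048 to 0.198 in the genes of ubiquitin activation, 0.011 to 0.121 in the conjugating enzymes and 0.03 to 0.151 in the interferon-inducible genes. Pomp read 0.156 without ProMyo 1-4 and 0.173 without saline 5-8. The cause of these changes was not tested.

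Signs changed for the median of activators and inhibitor with the next probe sets (-0.062); for the median of transcription factors with the stricter filter (-0.019), median centring (-0.026), quantile normalization (-0.057) and without an array (-0.053 to 0.088); and for the conjugating enzymes with quantile normalization (-0.019). Of single genes, the next probe set turned Psma1 (-0.43), Psmb8 (0.49), Psmc4 (0.052), Psmd7 (-0.15), Psme3 (-0.021), Psme4 (-0.10), Irf8 (0.25), Nfe2l2 (-0.078), Psmg3 (-0.058), Ube2n (-0.11), Ubqln2 (0.13), Usp14 (-0.055) and Vcp (-0.022). The mean of probe sets turned Psma1 (-0.15), Psmb8 (0.14) and Ecpas (-0.034), and quantile normalization Psme4 (-0.012). Without each array, the differences spanned -0.0054 to 0.354 for Psme1, -0.071 to 0.131 for Psme4, -0.029 to 0.227 for Nfe2l2, -0.117 to 1.05 for Psmg1 and -0.059 to 0.224 for Usp14.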
